A study of Mus musculus with 12 samples.

Results

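Collagen genes were taken from the gene table of the series as all rows whose symbol has the form Col, a number, a and a number, and 44 of the 26190 genes met this rule. All 44 were placed in 9 classes by the known build of their chains, namely 11 fibrillar, 6 basement membrane, 6 beaded, 9 fibril-associated (FACIT), 3 network, 4 transmembrane and 2 multiplexin collagens, 1 anchoring fibril collagen and 2 others. RNA was sequenced from 12 libraries, 3 for each of 4 groups. The first pair of groups was E11.5H atria and E11.5H ventricles, dissected from C57BL/6 mouse embryonic hearts (E11.5H) at stage E11.5. The second pair was HO atrium-like parts and HO ventricle-like parts, both cut from the same 3 biological replicates of heart organoids (HOs) on day 13 of culture. HOs are contractile bodies that were grown from embryoid bodies of mouse embryonic stem cells on a gel of laminin and entactin with FGF4, and with BMP4, BIO and LIF from day 9. The labels give strain C57BL/6 for the HO libraries, while the study used lines of C57BL/6 and of an F1 hybrid with JF1 and the line behind each library is not given in the sources used here. The comparisons asked which collagens differed between the chambers of the embryo, between the parts of HOs, and between each part and its chamber.

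Collagens are extracellular proteins in which 3 chains wind into a triple helix, and each chain repeats a glycine followed by any 2 residues (Gly-X-Y), because only glycine can sit on the helix axis. Fibrillar collagens form the tensile fibrils of mesenchyme, basement membrane collagens (type IV) form the sheet under epithelia, endothelia and around muscle cells, and beaded collagens (type VI) form microfibrils beside cells. In the embryonic heart, fibroblast precursors, endocardial cushion cells and endothelial cells are known sources, and the chains are hydroxylated, folded and secreted before they are cleaved and cross-linked outside the cell.

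The repeat that all members share was read from the coding sequences of GENCODE vM21 (GRCm38), which matched all 44 genes through the RefSeq transcripts of the gene table. The stretches below show 30 codons of a chain from each of the 3 main classes and of a second fibrillar chain, with every glycine codon in capitals, so that the spacing of the capitals shows where the repeat is kept. They begin with the first glycine of the longest unbroken run, except in Col4a1, where the stretch crosses the end of that run.
Col1a1, codons 168 to 197: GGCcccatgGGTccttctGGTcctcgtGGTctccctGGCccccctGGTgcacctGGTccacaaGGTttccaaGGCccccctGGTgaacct
Col3a1, codons 164 to 193: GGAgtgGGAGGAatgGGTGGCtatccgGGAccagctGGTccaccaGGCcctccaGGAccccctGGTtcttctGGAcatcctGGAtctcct
Col4a1, codons 148 to 177: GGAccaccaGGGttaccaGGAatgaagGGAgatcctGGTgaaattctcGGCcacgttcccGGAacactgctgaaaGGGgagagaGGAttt
Col6a1, codons 256 to 285: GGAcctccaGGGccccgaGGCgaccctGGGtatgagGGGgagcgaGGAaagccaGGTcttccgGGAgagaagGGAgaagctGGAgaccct
In Col1a1 and Col6a1 10 of the 30 codons code for glycine, each followed by 2 other codons. The Col3a1 stretch holds 12, since extra glycines stand between the regular ones, and the Col4a1 stretch holds 9, with gaps where the repeat is interrupted. The longest unbroken run spanned 216 to 344 triplets in the 11 fibrillar collagens, with a median of 338. It spanned 39 to 66 triplets in the 6 basement membrane collagens, whose repeat was split into 16 to 24 runs of 5 triplets or more, against 2 to 3 runs in fibrillar collagens. Beaded collagens reached 37 to 87 triplets, and their runs held 7.95% to 31.9% of their codons, so most of each beaded chain lies outside the repeat. The shortest of all longest runs, 23 triplets, was found in Col26a1.

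**Figure D1:**
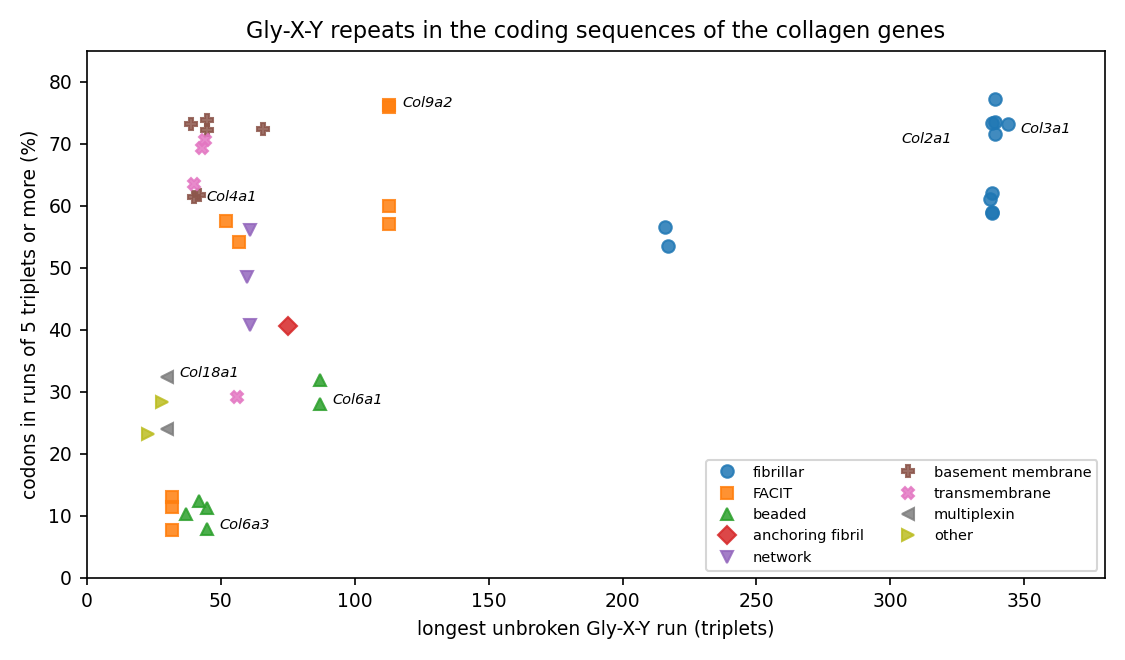
Longest unbroken Gly-X-Y run of each of the 44 collagen genes, in triplets (horizontal axis), against the percent of its codons that lie in runs of 5 triplets or more (vertical axis), with marker shape and colour by class. Fibrillar collagens stand at 216 triplets or more and every other member at 113 or fewer.

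The upstream sequences of 4 genes whose levels are described most below are printed to show how unlike they are, as the 250 bases before the start of transcription in the promoter table of RefSeq (GRCm38.p6). That table held 35 of the 44 genes, each at the start that the gene table gives. Capitals mark the matches to the CCAAT box, the GC box GGGCGG and the TATA box TATAAA, which were searched on both strands and do not overlap here.
Col1a2, chr6:4505368-4505617, plus strand: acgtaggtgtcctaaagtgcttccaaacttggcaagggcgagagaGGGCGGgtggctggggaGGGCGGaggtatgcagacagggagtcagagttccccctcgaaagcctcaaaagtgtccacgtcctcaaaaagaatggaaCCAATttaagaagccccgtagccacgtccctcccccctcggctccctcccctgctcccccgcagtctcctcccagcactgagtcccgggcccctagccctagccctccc
Col3a1, chr1:45311288-45311537, plus strand: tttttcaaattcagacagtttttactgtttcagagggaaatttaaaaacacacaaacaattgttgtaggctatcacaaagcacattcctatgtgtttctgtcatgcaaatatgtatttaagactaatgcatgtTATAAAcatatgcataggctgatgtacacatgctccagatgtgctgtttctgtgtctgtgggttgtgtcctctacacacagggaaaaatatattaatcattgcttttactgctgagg
Col6a1, chr10:76726045-76726294, minus strand: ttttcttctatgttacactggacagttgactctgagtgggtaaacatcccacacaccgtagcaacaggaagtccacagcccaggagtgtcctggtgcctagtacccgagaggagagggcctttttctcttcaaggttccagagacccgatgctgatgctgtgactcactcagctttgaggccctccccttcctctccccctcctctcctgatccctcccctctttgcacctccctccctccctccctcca
Col6a2, chr10:76623631-76623880, minus strand: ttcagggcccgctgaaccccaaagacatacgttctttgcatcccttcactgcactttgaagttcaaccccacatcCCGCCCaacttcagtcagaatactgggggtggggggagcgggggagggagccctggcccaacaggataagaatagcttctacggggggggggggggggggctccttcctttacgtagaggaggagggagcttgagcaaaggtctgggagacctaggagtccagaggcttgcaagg
The Col1a2 window had GGGCGG 205 and 188 bases and CCAAT 109 bases before the start. The Col3a1 window had TATAAA 117 bases before the start. Col6a1 had no match, and Col6a2 had 1 match to GGGCGG on the opposite strand, printed as CCGCCC. Over the 35 collagen genes, 21 (60%) held GGGCGG, 12 (34.3%) CCAAT and 5 (14.3%) TATAAA, against 32.7%, 33.9% and 12.4% of the 32851 promoters in the table. The median share of G and C was 59.2% in the collagen windows and 52.4% in all.

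Each library held between 23971258 and 30540993 fragments in genes. Counting was not stated to use strand, so reads cannot be divided where a member overlaps another gene, as at Col4a1 and Col4a2, which share 22 bases head to head, at Col9a3, which shares 230 bases with Tcfl5, and at Col10a1, which lies within Nt5dc1. Cardiomyocyte genes such as Tnnt2 (cardiac troponin T) were present in every library. The sum of 16 cardiomyocyte genes was 15789 to 18989 FPKM (fragments per kilobase of transcript, scaled to library depth) in E11.5H and 405 to 4693 FPKM in HOs. The HO libraries also differed in other cell types. In the order of replicates 1, 2 and 3, which is kept throughout, 12 fibroblast and mesenchyme genes summed to 196, 1089.9 and 394 FPKM in HO atrium-like and 879.7, 752 and 188 FPKM in HO ventricle-like parts, so that HO atrium-like replicate 2 and HO ventricle-like replicates 1 and 2 had the most. The sum of 14 endoderm and hepatocyte genes was 12331, 623 and 4943 FPKM in HO atrium-like and 259.6, 48.4 and 4956 FPKM in HO ventricle-like parts, against 15.7 to 47.9 FPKM in E11.5H. In bulk RNA, fewer cells of a type and less RNA per cell cannot be told apart.

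Collagen mRNA made up 0.435 to 0.609% of fragments in E11.5H and 0.486 to 3.13% in HOs. Summed over the 44 genes, the level was 709, 929 and 896 FPKM in E11.5H atria and 758, 740.1 and 661 FPKM in E11.5H ventricles, or 845 ± 118 and 719.8 ± 51.7 (SD, n = 3). It was 914, 3347 and 1132 FPKM in HO atrium-like parts and 4854, 2163 and 700.0 FPKM in HO ventricle-like parts. The HO libraries thus spanned 6.93-fold and the E11.5H libraries 1.41-fold, and the 3 HO libraries with the highest sums were those with the most fibroblast and mesenchyme mRNA. The same 3 libraries were highest for the sum of 9 bone genes, which was 57.9, 471 and 48.8 FPKM in HO atrium-like and 537, 529 and 87.8 FPKM in HO ventricle-like parts, against 1.03 to 2.26 FPKM in E11.5H. Of these sums Spp1 (osteopontin), which other cells also make, gave 55.4, 435 and 21.8 FPKM and 486, 465 and 77.97 FPKM in HOs. Bglap and Ibsp, the defining bone genes, were at 0 in every E11.5H library. In HOs 3 of the 9 bone genes stayed under 1 FPKM in every library, and the sum does not identify bone cells. The same 3 libraries were also highest among HOs for the sums of macrophage, endothelium, smooth muscle, cartilage and skeletal muscle genes. They were lowest for the endoderm and hepatocyte sum. The cardiomyocyte, gut epithelium, squamous and basal epithelium and hemoglobin sums did not divide the HO libraries in this way. The part of these cell types in the collagen levels was not tested.

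**Figure D2:**
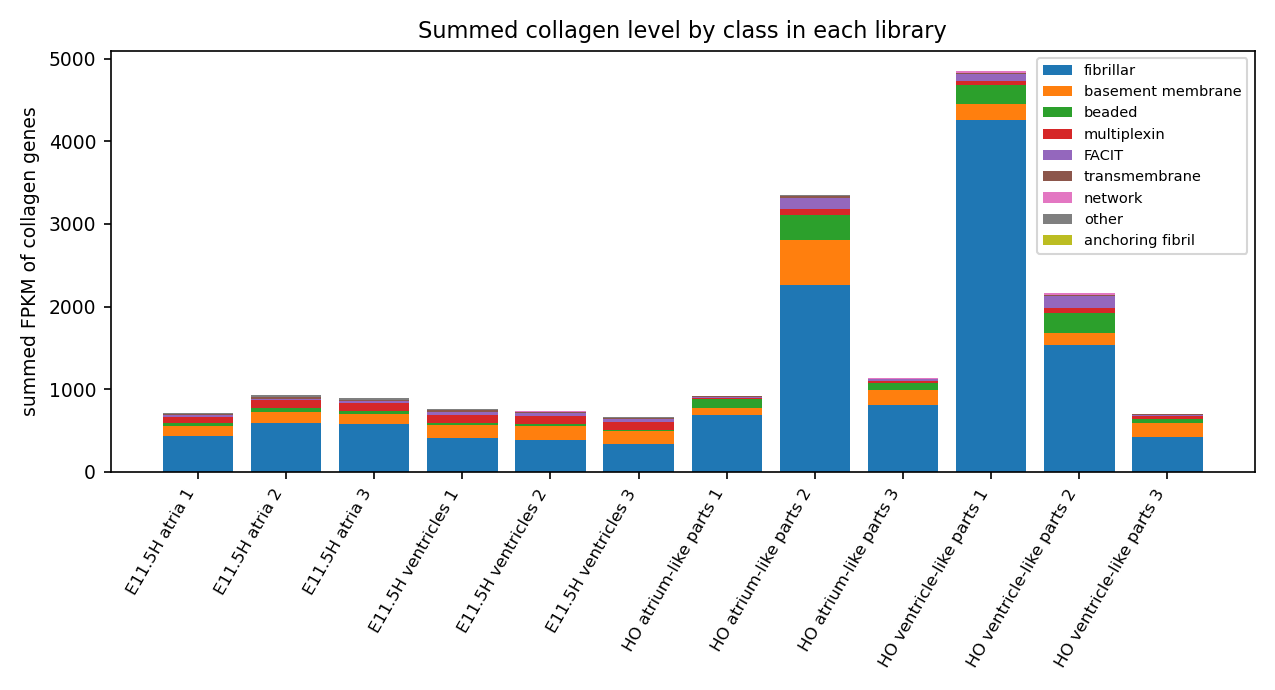
Summed FPKM of the collagen genes in each of the 12 libraries, stacked by class, with 1 bar per library. HO atrium-like replicate 2 and HO ventricle-like replicates 1 and 2 reach 2163 to 4854 FPKM, and the other 9 libraries stay between 661 and 1132.

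Fibrillar collagens held the largest share of this sum in every library. They took 61.6, 63.7 and 64.9% of it in E11.5H atria and 53.6, 52.3 and 50.05% in E11.5H ventricles, without overlap. In HOs they took 75.3, 67.6 and 71.6% in atrium-like and 87.7, 71.2 and 59.6% in ventricle-like parts. Basement membrane collagens took 12.8 to 16.5% in atria and 21.9 to 24.1% in ventricles, and 3.97 to 24.8% in HOs. The share of beaded collagens was 4.503 to 5.14% in atria, 2.62 to 3.21% in ventricles, 7.78 to 11.4% in HO atrium-like and 4.85 to 11.3% in HO ventricle-like parts, so every HO library but HO ventricle-like replicate 1 was above all 6 E11.5H libraries. Multiplexins went the other way, at 10.3 to 13.3% in E11.5H against 0.868 to 5.82% in HOs. With 3 libraries against 3, an exact permutation test of such a sum or share cannot reach a two-sided p under 0.1, so these shares are descriptions.

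**Figure D3:**
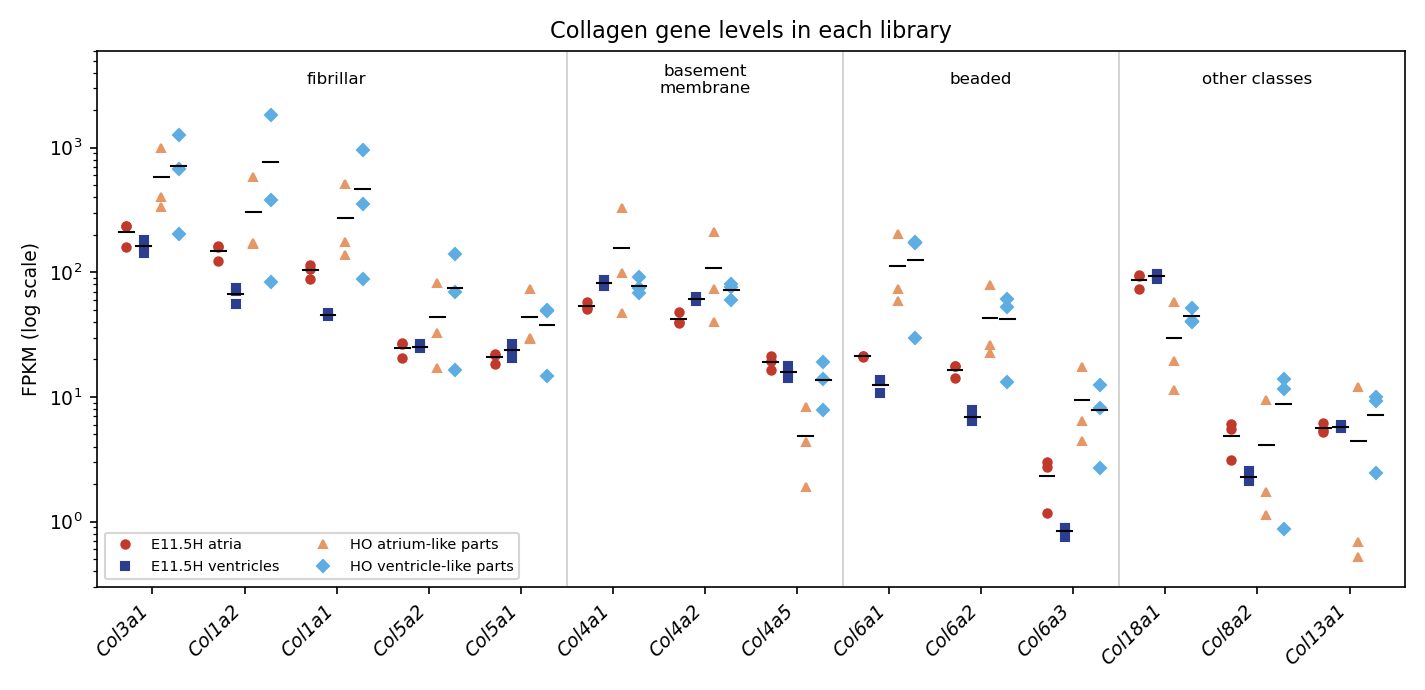
FPKM (log scale) of 14 abundant collagen genes in each library, grouped by class, with 1 point per library and a black line at the mean of each group of 3. For Col1a2 the E11.5H points lie between 55.4 and 164 FPKM, while those of HOs spread from 84.0 to 1835 FPKM.

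Between the chambers of E11.5H, both type I chains, 2 type VI chains and Col8a2 were higher in atria, and the chains of type II and type IX collagen were higher in ventricles. Of 44 members 36 passed the filter on low counts, and 9 were called, that is, had a Benjamini-Hochberg adjusted p under 0.05 in edgeR's quasi-likelihood test over all genes and an absolute log2 fold change over 1. Fold changes are given with their standard error (SE). In atria 5 were higher (13.9% of those tested, against 2.92% of all genes tested) and 4 were lower (11.1% against 1.97%). On counts scaled by TMM, a factor per library that centres most genes, 7 members (19.4%) had every atrial library above every ventricular one, as did 16.1% of all genes, and 9 (25.0%) below, as did 16.6%. Such counts use scaled counts in every comparison, while overlaps described for single genes are those of the FPKM printed, and where the 2 differ for a gene this is said. The median log2 fold change was -0.07 over the members and 0.01 over all genes tested.

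The 2 chains of type I collagen, the main fibrillar collagen of connective tissue, were both called. Col1a1 had 88.98, 115 and 107 FPKM in atria against 47.2, 45.3 and 44.8 FPKM in ventricles. Col1a2 (chr6:4505618-4541543) had 124, 161 and 164 FPKM in atria against 75.5, 71.2 and 55.4 FPKM in ventricles. For both chains all atrial libraries lay above the ventricular ones, and the log2 fold changes were 1.11 (SE 0.08, adjusted p = 2.08e-05, edgeR) for Col1a1 and 1.08 (SE 0.12, adjusted p = 0.00021, edgeR) for Col1a2. Col3a1 (chr1:45311538-45349706), the fibrillar chain of type III collagen of loose connective tissue and the most abundant member, had 159, 237 and 237 FPKM in atria against 182, 161 and 143 FPKM in ventricles. Its groups overlapped, and its log2 fold change of 0.31 (SE 0.13, adjusted p = 0.164, edgeR) did not pass. The type V chains, which set the width of type I fibrils, overlapped between the chambers in FPKM and were not called, with Col5a1 at 20.8 ± 1.99 and 23.7 ± 2.99 FPKM and Col5a2 at 24.8 ± 3.87 and 25.3 ± 0.938 FPKM (SD, n = 3, atria and ventricles). On scaled counts, every atrial library was below the ventricular ones for Col5a1. Col2a1, the fibrillar chain of cartilage, which is also made in the heart's cushions, went the other way with 23.5, 26.97 and 23.2 FPKM in atria against 46.5, 56.2 and 40.05 FPKM in ventricles. All atrial libraries lay below the ventricular ones, at a log2 fold change of -1.02 (SE 0.11, adjusted p = 0.00017, edgeR).

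The 3 chains of type VI collagen, a microfibril beside cells, were all higher in atria without overlap, and 2 were called. Col6a1 (chr10:76708792-76726044) had 20.98, 21.2 and 21.2 FPKM in atria against 13.7, 10.7 and 13.3 FPKM in ventricles, and its log2 fold change of 0.68 (SE 0.10, adjusted p = 0.00184, edgeR) stayed under the limit of 1. Col6a2 (chr10:76595756-76623630), which lies 85161 bases from Col6a1 on the same strand, had 14.2, 17.6 and 17.6 FPKM in atria against 6.38, 7.85 and 6.64 FPKM in ventricles, a log2 fold change of 1.17 (SE 0.11, adjusted p = 8.86e-05, edgeR). Col6a3 had 1.16, 3.03 and 2.76 FPKM in atria against 0.895, 0.749 and 0.884 FPKM in ventricles. In atrial replicate 1 it was near the ventricular level, and the log2 fold change was 1.38 (SE 0.30, adjusted p = 0.0119, edgeR). The other 3 beaded genes, Col6a4, Col6a5 and Col6a6, stayed under 1 FPKM in every library of the series.

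Type IX collagen, a FACIT that decorates type II fibrils, was lower in atria in all 3 chains. Col9a3, encoded at chr2:180598222-180622185, had 3.42, 2.72 and 3.77 FPKM in atria against 13.2, 13.1 and 10.98 FPKM in ventricles, at a log2 fold change of -1.98 (SE 0.15, adjusted p = 2.34e-05, edgeR). Col9a2 had 2.69, 2.82 and 2.24 FPKM and 6.67, 6.21 and 5.79 FPKM, at -1.34 (SE 0.16, adjusted p = 0.000467, edgeR). Col9a1 had 5.93, 6.73 and 4.41 FPKM and 13.3, 10.99 and 10.3 FPKM, at -1.09 (SE 0.15, adjusted p = 0.00112, edgeR). No group of these chains overlapped. Beside them, none of the 9 tested of 12 cartilage genes was called and all 9 had a negative fold change, with summed levels of 63.5, 49.02 and 45.3 FPKM in atria against 82.9, 75.4 and 59.4 FPKM in ventricles. Most of that sum was Hapln1 and Sox9, while Acan, the main cartilage proteoglycan, was at 0 to 0.317 FPKM, and Matn1 and Snorc were at 0 in every E11.5H library.

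Type IV collagen of basement membranes was moderately higher in ventricles for its most abundant pair of chains. Col4a1 (chr8:11198423-11312826) had 52.4, 57.3 and 51.1 FPKM in atria against 86.2, 83.8 and 78.3 FPKM in ventricles. Its head-to-head neighbour Col4a2 had 39.1, 47.8 and 40.2 FPKM and 62.4, 63.8 and 58.8 FPKM. Neither pair of groups overlapped, and both adjusted p-values passed at log2 fold changes of -0.70 (SE 0.06, adjusted p = 5.69e-05, edgeR) and -0.61 (SE 0.07, adjusted p = 0.000487, edgeR), which are under the limit of 1. The X-linked chains did not follow, as Col4a5 had 19.1 ± 2.42 FPKM in atria against 15.8 ± 1.76 FPKM in ventricles (SD, n = 3), and Col4a6 lay higher in every atrial library, at 5.95, 8.54 and 6.42 against 3.14, 4.02 and 4.28 FPKM, with a log2 fold change of 0.79 (SE 0.16, adjusted p = 0.00951, edgeR).

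Among the other classes 1 gene was called, Col8a2, a network-forming chain known from basement membranes of the eye and vessels. It had 3.14, 5.55 and 6.02 FPKM in atria against 2.17, 2.13 and 2.54 FPKM in ventricles, a log2 fold change of 1.03 (SE 0.23, adjusted p = 0.0145, edgeR). Col26a1 had 9.75, 19.7 and 21.5 FPKM in atria against 9.42, 9.58 and 7.55 FPKM in ventricles, and at a log2 fold change of 0.87 (SE 0.24, adjusted p = 0.038, edgeR) it stayed under the limit. Its FPKM narrowly did not overlap, while on scaled counts the groups of Col26a1 did. Col18a1, a multiplexin of basement membranes whose end fragment is endostatin, was abundant and was not called, with 87.6 ± 11.7 FPKM in atria against 93.04 ± 4.68 FPKM in ventricles (SD, n = 3). Its FPKM overlapped, while on scaled counts every atrial library was below the ventricular ones. The transmembrane collagen Col13a1 overlapped, with 5.62 ± 0.5198 and 5.78 ± 0.1798 FPKM. Of other cell types, 5 of 10 macrophage genes were called higher in atria (summed level 39.2 to 67.8 against 16.9 to 22.9 FPKM) and 1 of 11 fibroblast and mesenchyme genes was called in each direction (283 to 315 against 256 to 268 FPKM). Also higher were 3 of 4 skeletal muscle, 2 of 8 smooth muscle and 1 of 9 endoderm and hepatocyte genes. Lower were 2 of 4 squamous and basal epithelium, 1 of 3 gut epithelium and 2 of 6 hemoglobin genes. Of 16 cardiomyocyte genes 1 was higher and 2 were lower. Their part in the collagen differences was not tested. All 9 calls were lost when the spread was estimated from all 12 libraries in 1 fit. That fit called 30 of 16494 genes, against 712 of 14536 in the main fit. Without E11.5H atria replicate 3, 5 remained, with 3.62% of all genes called. Without E11.5H ventricles replicate 2, 6 remained, with 3.76% of all genes called. Hemoglobin mRNA summed to 11636, 19169.8 and 73214 FPKM in ventricles, highest in replicate 3. Without that library 8 of the 9 calls were kept, and 4.25% of all genes were called.

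No collagen was called between the HO parts. Of 40 tested members edgeR called 0 in either direction, and over all genes it called 0.00% higher and 0.00% lower. At an unadjusted p under 0.05 there were 2 members of 40, against 5.66% of all genes. DESeq2 also called 0 members, and 59 of 15703 genes. In simulated counts 2 of 200 changes of 2 on the log2 scale were recovered in this comparison, so the lack of calls does not show equal levels. One member, Col27a1, was higher in every atrium-like library and 1, Col7a1, was lower in every one, 2.50% each, where all genes gave 5.76% and 6.20%. Col27a1 falls outside the rule for named genes and was described after its values were seen. The FPKM of Col27a1 overlapped, at 0.551 to 0.721 against 0.252 to 0.571. The median log2 fold change was -0.49 over the members and -0.03 over all genes tested, with 28 of 40 negative.

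The fibrillar and beaded chains differed widely between the libraries of each HO part. Col1a1 had 137, 512 and 176 FPKM in atrium-like and 956, 351 and 87.9 FPKM in ventricle-like parts. Col1a2 had 171, 582 and 170.1 FPKM and 1835, 379.9 and 83.97 FPKM. Col3a1 had 332, 1000.0 and 400.0 FPKM and 1269, 671 and 203 FPKM. For all 3 genes the highest library was HO ventricle-like replicate 1 and the lowest HO ventricle-like replicate 3, so that the range of the ventricle-like parts held that of the atrium-like parts. Type V followed, with Col5a1 at 29.8, 73.5 and 29.4 FPKM in atrium-like and 50.3, 49.1 and 14.8 FPKM in ventricle-like parts and Col5a2 at 16.98, 82.5 and 32.7 FPKM and 139, 69.3 and 16.5 FPKM. In Col5a1 the highest library was instead HO atrium-like replicate 2. Col6a1 had 73.6, 203 and 58.6 FPKM in atrium-like and 174, 171 and 29.9 FPKM in ventricle-like parts. Col6a2 had 26.1, 79.3 and 22.7 FPKM and 53.0, 60.6 and 13.3 FPKM, and Col6a3 had 4.43, 17.5 and 6.43 FPKM and 8.23, 12.6 and 2.71 FPKM. In each type VI chain HO atrium-like replicate 2 was the highest library and HO ventricle-like replicate 3 the lowest.

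Basement membrane collagens had another pattern across the HO libraries. Col4a1 had 47.2, 327 and 98.3 FPKM in atrium-like and 91.03, 67.7 and 74.4 FPKM in ventricle-like parts, and Col4a2 had 39.7, 209.8 and 73.4 FPKM and 75.6, 59.5 and 80.1 FPKM. HO atrium-like replicate 2 stood alone above 200 FPKM for both, and the ventricle-like libraries were close together, also replicate 1 with its high fibrillar sum. Col4a5 had 1.88, 8.32 and 4.35 FPKM in atrium-like and 19.2, 7.82 and 14.02 FPKM in ventricle-like parts, a log2 fold change of -1.41 (SE 0.53) at an unadjusted p of 0.037 and an edgeR adjusted p of 0.75. The 2 groups overlapped only in that HO atrium-like replicate 2, at 8.32 FPKM, was above HO ventricle-like replicate 2, at 7.82 FPKM. Col7a1, the collagen of anchoring fibrils under squamous epithelium, had 0.178, 0.5199 and 0.242 FPKM in atrium-like and 2.22, 1.17 and 0.527 FPKM in ventricle-like parts, a log2 fold change of -1.96 (SE 0.66) at an unadjusted p of 0.0247 and an edgeR adjusted p of 0.75. Beside it, 8 squamous and basal epithelium genes summed to 33.7, 17.1 and 57.98 FPKM in atrium-like and 168, 20.5 and 172 FPKM in ventricle-like parts, highest in HO ventricle-like replicates 1 and 3, and none of the 8 was called.

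The chains of cartilage and the less abundant classes also varied by library. Col2a1 had 0, 4.598 and 0.904 FPKM in atrium-like and 1.95, 10.8 and 9.25 FPKM in ventricle-like parts. Col9a1 had 0.0928, 6.76 and 1.63 FPKM and 0.317, 6.16 and 0.194 FPKM. Col9a2 had 5.17, 43.4 and 10.05 FPKM and 16.7, 42.8 and 4.105 FPKM, and Col9a3 had 0, 54.9 and 3.92 FPKM and 42.1, 72.5 and 1.795 FPKM. Type IX chains were highest in replicate 2 of each part, and Col9a3 and Col2a1 had no fragment in HO atrium-like replicate 1, where 0 allows up to 3 fragments, or 0.0440 and 0.0244 FPKM by counting error alone. Col8a2 had 1.13, 9.45 and 1.72 FPKM and 13.9, 11.6 and 0.876 FPKM, Col13a1 had 0.519, 12.1 and 0.6797 FPKM and 9.96, 9.21 and 2.44 FPKM, and Col15a1, a multiplexin, had 0.309, 10.1 and 0.179 FPKM and 1.89, 6.75 and 0.272 FPKM. In each of these the libraries that were high were HO atrium-like replicate 2 and HO ventricle-like replicates 1 and 2.

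HO atrium-like parts had more mRNA of the 3 abundant type VI chains, of Col3a1, Col1a1 and Col5a1 and of Col9a2 than E11.5H atria, and less of the X-linked type IV chains and of Col26a1. Of 39 tested members 11 were called. In HO atrium-like parts 8 were higher (20.5%, against 16.0% of all genes tested) and 3 lower (7.69% against 8.81%). In 13 members (33.3%) every atrium-like library lay above every atrial one, as in 27.7% of all genes, and in 6 (15.4%) below, as in 26.4%. The median log2 fold change was 1.06 over the members and 0.06 over all genes tested.

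All 3 abundant beaded chains were called higher. Each HO atrium-like library exceeded each atrial one, with log2 fold changes of 2.52 (SE 0.43, adjusted p = 0.00907, edgeR) for Col6a1, 2.14 (SE 0.55, adjusted p = 0.0293, edgeR) for Col6a3 and 1.49 (SE 0.43, adjusted p = 0.0431, edgeR) for Col6a2. Among fibrillar chains Col3a1 was higher at 1.57 (SE 0.39, adjusted p = 0.0262, edgeR), Col1a1 at 1.51 (SE 0.44, adjusted p = 0.0418, edgeR) and Col5a1 at 1.22 (SE 0.32, adjusted p = 0.0326, edgeR). Col1a2, the partner of Col1a1, did not pass at 1.15 (SE 0.45, adjusted p = 0.0983, edgeR), although its lowest HO atrium-like library, at 170.1 FPKM, was above the highest atrial one, at 164 FPKM. Of the FACITs Col9a2 was higher at 2.99 (SE 0.72, adjusted p = 0.0245, edgeR), in contrast to Col9a1, whose groups overlapped. Col20a1, a low FACIT that falls outside the rule for named genes and was chosen after its values were seen, was also called, with 0.275, 0.345 and 0.235 FPKM against 0.0202, 0 and 0.0147 FPKM.

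Lower levels were called in 3 members. Col26a1, with 0, 1.45 and 0.153 FPKM in HO atrium-like parts against 9.75 to 21.5 FPKM in atria, had a log2 fold change of -4.93 (SE 1.38, adjusted p = 0.0375, edgeR). Col4a6, with 0.615, 2.28 and 1.91 FPKM against 5.95 to 8.54 FPKM, had -2.0 (SE 0.43, adjusted p = 0.0173, edgeR), and its divergent neighbour Col4a5 had -1.87 (SE 0.44, adjusted p = 0.0222, edgeR). In none of the 3 did the groups overlap. The other type IV pair was not called, with Col4a1 at 47.2, 327 and 98.3 FPKM against 51.1 to 57.3 FPKM and Col4a2 at 39.7, 209.8 and 73.4 FPKM against 39.1 to 47.8 FPKM, where the FPKM of HO atrium-like replicates 2 and 3 were above the atria. On scaled counts replicate 1 was above them too, and both chains are among the 13. Col18a1 had 11.3, 58.3 and 19.5 FPKM in HO atrium-like parts against 74.05 to 95.02 FPKM in atria, and at -1.47 (SE 0.51, adjusted p = 0.0723, edgeR) it was not called. Col2a1 at -3.70 (SE 1.44, adjusted p = 0.097, edgeR) was not called either, though all its HO atrium-like libraries lay below the atrial ones.

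Genes of other cell types moved in the same comparison. Called higher were 2 of 10 macrophage and 2 of 5 squamous and basal epithelium genes, and 1 of 8 cartilage and 6 of 6 hemoglobin genes were called lower. Of 8 smooth muscle genes 1 was higher and 3 were lower. Of 16 cardiomyocyte genes 15 were called lower and none higher, and all 11 gut epithelium genes were called higher. Of 13 endoderm and hepatocyte genes 11 were called higher and 1 lower. In addition, 2 of 10 endothelial genes were called lower and 2 of 5 bone genes higher, and 2 of 12 fibroblast and mesenchyme genes were called higher and 1 lower. Their part in the collagen calls was not tested. Leaving out any 1 of the 3 atrial libraries left 1 called member, Col12a1 without replicate 1 and Col6a1 without replicate 2 or 3. In these fits 10.3 to 10.8% of all genes were called, while the main fit called 3821 of 15418. Without HO atrium-like replicate 2, the library with the most collagen, 14 were called, 5 higher and 9 lower, with 34.7% of all genes. Without HO atrium-like replicate 3 there were 7, with 18.3% of all genes. DESeq2 called 18 members, 13 higher and 5 lower, and 4794 of 15418 genes.

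HO ventricle-like parts had more mRNA of the 3 abundant type VI chains and of Col1a1, Col12a1, Col15a1 and Col7a1 than E11.5H ventricles, and less of Col2a1 and Col18a1. Of 39 tested members 10 were called. In HO ventricle-like parts 8 were higher (20.5%, against 11.6% of all genes tested) and 2 lower (5.13% against 7.35%). In 13 members (33.3%) every ventricle-like library lay above every ventricular one, as in 26.1% of all genes, and in 5 (12.8%) below, as in 25.0%. The median log2 fold change was 1.48 over the members and 0.09 over all genes tested.

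Again the 3 abundant beaded chains were called higher. Their log2 fold changes were 3.22 (SE 0.66, adjusted p = 0.0169, edgeR) for Col6a1, 3.12 (SE 0.54, adjusted p = 0.0108, edgeR) for Col6a3 and 2.51 (SE 0.54, adjusted p = 0.02, edgeR) for Col6a2, without overlap of the groups. HO ventricle-like replicate 3, the library with the least collagen among HOs, had 29.9 FPKM of Col6a1 where the ventricles had 10.7 to 13.7 FPKM. Among fibrillar chains Col1a1 was higher at 3.26 (SE 0.82, adjusted p = 0.0307, edgeR). Col1a2 at 3.44 (SE 1.07, adjusted p = 0.0555, edgeR) and Col3a1 at 2.06 (SE 0.62, adjusted p = 0.0503, edgeR) narrowly missed the adjusted p, although all their HO ventricle-like libraries lay above the ventricular ones. Col12a1, a FACIT on type I fibrils, had 12.7, 11.7 and 5.08 FPKM in HO ventricle-like parts against 1.97, 1.76 and 1.23 FPKM in ventricles, at 2.48 (SE 0.38, adjusted p = 0.00745, edgeR). Col15a1 had 0.272 to 6.75 FPKM against 0.0586 to 0.146 FPKM, at 4.57 (SE 1.19, adjusted p = 0.0338, edgeR), and Col7a1 had 0.527 to 2.22 FPKM against 0.0439 to 0.135 FPKM, at 3.58 (SE 0.72, adjusted p = 0.0164, edgeR). Col20a1, again outside the rule and chosen after its values were seen, was called with 0.467, 0.1899 and 0.272 FPKM against 0.00745, 0 and 0.0323 FPKM.

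Both members called lower were abundant in the embryo. Col2a1 had 1.95, 10.8 and 9.25 FPKM in HO ventricle-like parts and 46.5, 56.2 and 40.05 FPKM in ventricles, a log2 fold change of -2.80 (SE 0.60, adjusted p = 0.0193, edgeR). Col18a1 had 40.3, 52.2 and 40.5 FPKM and 94.3, 96.9 and 87.9 FPKM, a log2 fold change of -1.17 (SE 0.12, adjusted p = 0.00262, edgeR). Neither overlapped, and the spread of Col18a1 was small in both groups. Type IV collagen did not pass in any chain, and the levels of Col4a1, at 77.7 ± 12.01 FPKM in HO ventricle-like parts and 82.8 ± 4.08 FPKM in ventricles, and of Col4a2, at 71.8 ± 10.8 and 61.7 ± 2.59 FPKM, were close (SD, n = 3).

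In this comparison, too, genes of other cell types moved. Called higher were 5 of 8 gut epithelium genes, and 6 of 6 hemoglobin genes were called lower. Of 8 smooth muscle genes 2 were higher and 3 were lower. Of 16 cardiomyocyte genes 12 were called lower and none higher, 6 of 10 macrophage genes, 3 of 6 bone genes, 4 of 8 squamous and basal epithelium genes, 5 of 10 endoderm and hepatocyte genes and 2 of 12 fibroblast and mesenchyme genes were called higher, and 3 of 9 cartilage and 4 of 10 endothelial genes were called lower. Their part in the collagen calls was not tested. Col12a1 and Col18a1 were called in all 6 fits that left out 1 library, and they were the 2 called members left when any 1 ventricular library was left out. In those fits without a ventricular library 7.0 to 7.57% of all genes were called, while the main fit called 2859 of 15094. Without HO ventricle-like replicate 3, the library with the least collagen, 19 members were called, 16 higher and 3 lower, with 23.9% of all genes. Without HO ventricle-like replicate 1, the library with the most, there were 6, with 13.7% of all genes. DESeq2 called 17, 14 higher and 3 lower, and 3742 of 15094 genes. The 3 beaded chains, Col1a1 and Col20a1 were called higher in both comparisons of HOs with E11.5H. These share no library, but both parts were cut from the same organoid samples and both chambers from embryonic hearts, so they are not independent. Of all genes tested, 16.0% and 11.6% were called higher in the 2 comparisons taken singly. The share called higher in both was not computed, so this recurrence is not read as particular to collagens.

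**Figure D4:**
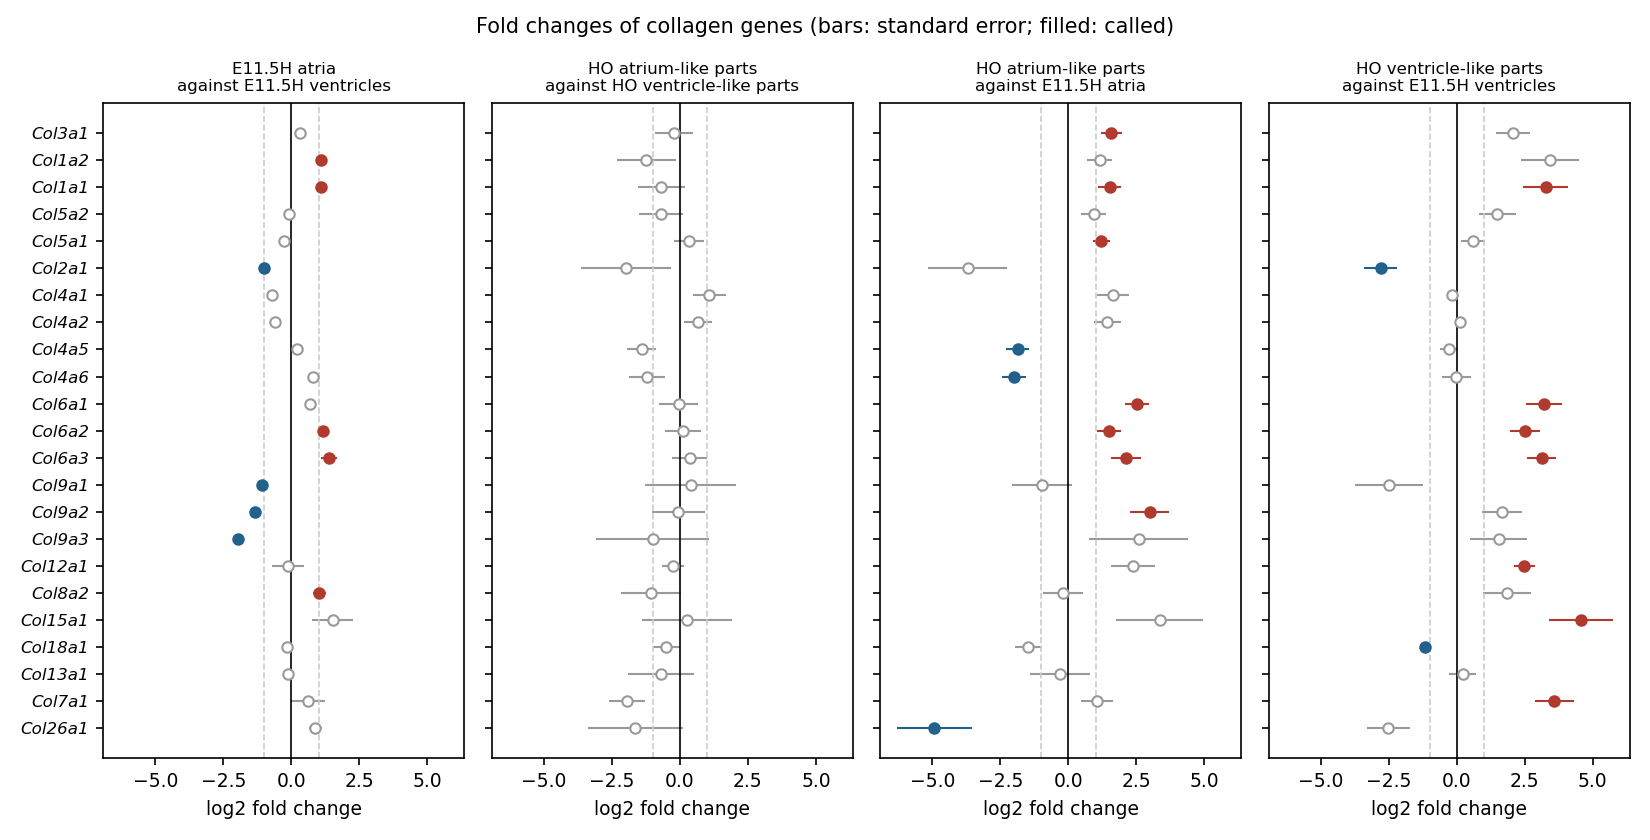
Log2 fold changes of 23 collagen genes (horizontal axis) in the 4 comparisons, with bars for the standard error from edgeR, filled points for called genes (red higher, blue lower), dashed lines at -1 and 1, and open grey points for genes not called. Called genes appear in 3 of the 4 panels, and the panel of HO atrium-like against HO ventricle-like parts has none.

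Whether the chamber difference itself differed between HOs and E11.5H was asked with an interaction term fitted to all 12 libraries. Of 41 tested members 0 were called by edgeR or by DESeq2. Over all genes edgeR called 0.0243% higher and 0.127% lower, and DESeq2 called 455 of 16494. At an unadjusted p under 0.05 there were 5 of 41 members, a share close to the 11.7% of all genes. Of these 5, 4 were type IV chains. Col4a1 and Col4a2 had positive interactions, of 1.80 (SE 0.66) and 1.29 (SE 0.57) on the log2 scale, and Col4a5 and Col4a6 had negative ones, of -1.59 (SE 0.59) and -2.0 (SE 0.74). The fifth was Col7a1, at -2.54 (SE 0.91). The edgeR adjusted p of these 5 was 0.347 to 0.422, so a difference of the chamber contrasts was not shown for any collagen. In simulated counts the interaction test recovered 3 of 200 genes given a log2 change of 2, so equal contrasts were not shown either.

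Ratios between chains do not depend on the total of a library, and they are given as descriptions of FPKM, first for chains that build 1 molecule or lie head to head and then for chains of different molecules. In the heterotrimer of type I collagen Col1a2 over Col1a1 was 1.24 to 1.598 in E11.5H against 0.956 to 1.92 in HOs, with the highest value in HO ventricle-like replicate 1. Col4a1 over Col4a2 ranged from 0.929 to 1.56 over all 12 libraries. For type VI collagen Col6a1 over Col6a2 was 1.201 to 2.14 in E11.5H against 2.26 to 3.28 in HOs, without overlap between the 6 libraries of each. For type IX collagen Col9a2 over Col9a1 was 0.419 to 0.565 in E11.5H against 6.16 to 55.8 in HOs. Its highest values, 55.8, 52.8 and 21.2, were in HO atrium-like replicate 1 and HO ventricle-like replicates 1 and 3. They divide by low levels of Col9a1, at 0.0928, 0.317 and 0.194 FPKM, so their size is uncertain. Col9a3 over Col9a1 was 0.404 to 1.19 in E11.5H against 0 to 133 in HOs. These ranges overlapped, as HO atrium-like replicate 1 had no fragment of Col9a3. Between chains of different molecules, the ratio of Col4a5 to Col4a1 was 0.3695, 0.372 and 0.323 in atria, 0.164, 0.185 and 0.226 in ventricles, 0.0399, 0.0254 and 0.0442 in HO atrium-like and 0.211, 0.116 and 0.188 in HO ventricle-like parts. HO atrium-like parts were thus below every other library, and atria above every other one. The ratio of Col2a1 to Col1a1, the fibrillar chains of cartilage and of connective tissue, was 0.217 to 0.264 in atria, 0.894 to 1.24 in ventricles and 0 to 0.105 in HOs, so that every HO library lay below every E11.5H library.

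**Figure D5:**
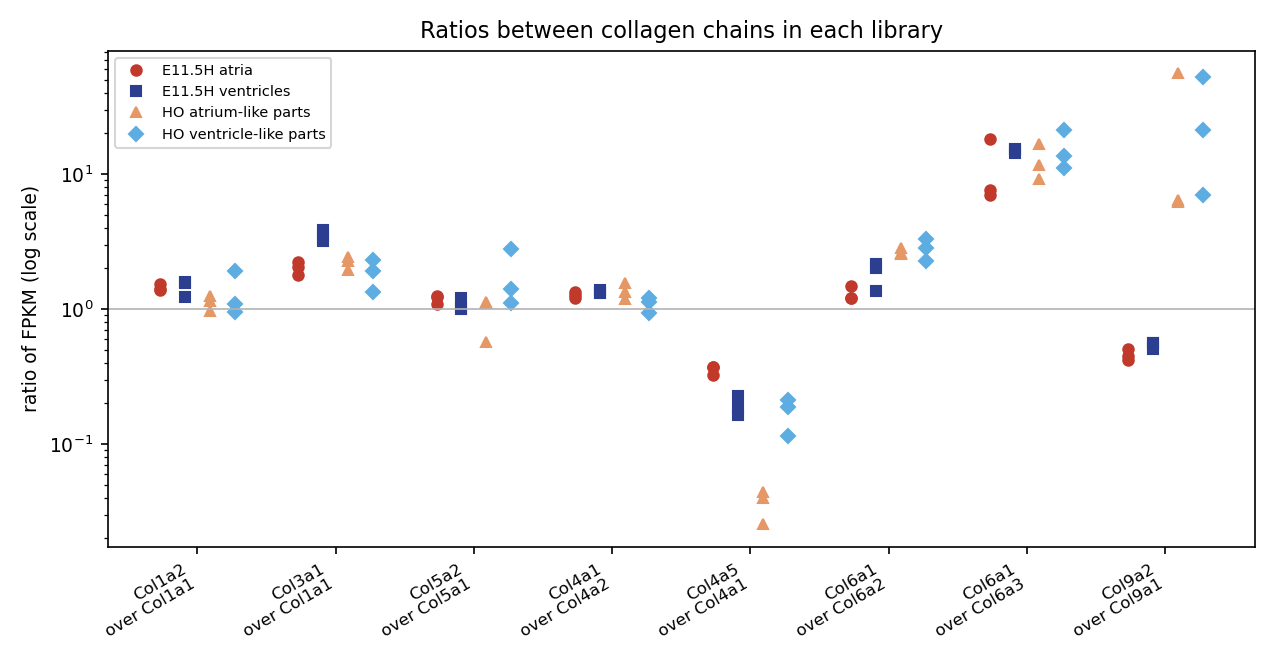
Ratios of FPKM between pairs of collagen chains (log scale) in each of the 12 libraries, with 1 point per library and marker by group, and a grey line at equal levels. Col9a2 over Col9a1 lies under 1 in all 6 E11.5H libraries and above 6 in all 6 HO libraries, while Col4a1 over Col4a2 stays near 1. In HO atrium-like replicate 1 and HO ventricle-like replicates 1 and 3, Col9a1 was low, at 0.0928, 0.317 and 0.194 FPKM.

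Many members were low. A mean of 10 FPKM or more was reached by 13 members in E11.5H atria, 13 in E11.5H ventricles, 12 in HO atrium-like and 13 in HO ventricle-like parts, and a mean under 1 FPKM was found for 18, 19, 17 and 14. Of the 44, 12 stayed under 1 FPKM in every library, and 9 had a mean of 10 FPKM or more in every group. Col10a1, the network collagen of growth plate cartilage, was at 0 to 0.128 FPKM in E11.5H against 0 to 0.245 FPKM in HOs and was tested only in the comparison of HO atrium-like parts with atria and in the interaction, without a call. Col16a1, a FACIT, had 4.18 to 6.19 FPKM in E11.5H against 2.204 to 17.8 FPKM in HOs, and Col23a1, a transmembrane collagen, had 7.798 to 10.97 FPKM and 0.278 to 5.87 FPKM. For Col23a1 all 6 HO libraries lay below E11.5H, while Col16a1 overlapped. Col5a3, another type V chain, had 0 to 0.203 FPKM in E11.5H and 0.615, 3.49 and 0.00754 FPKM in HO atrium-like and 0.725, 2.39 and 0.0656 FPKM in HO ventricle-like parts. These 3 were described outside the rule, after their values were seen.

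The proteins that make, cut, bind and sense collagen were followed in 4 lists. Between the chambers of E11.5H, 0 of 19 tested maturation enzymes and chaperones were called higher in atria and 2 lower, P3h2 (prolyl 3-hydroxylase 2) at -1.66 (SE 0.17, adjusted p = 0.000159, edgeR) and P4ha2 (a catalytic subunit of prolyl 4-hydroxylase) at -1.11 (SE 0.16, adjusted p = 0.00107, edgeR). Of 12 tested genes of procollagen cleavage and cross-linking 1 was higher and 2 lower. Lox, the lysyl oxidase that cross-links fibrils, was higher in atria at 1.45 (SE 0.13, adjusted p = 8.42e-05, edgeR), and Loxl2 at -1.20 (SE 0.12, adjusted p = 0.000147, edgeR) and the N-propeptidase Adamts3 at -1.35 (SE 0.26, adjusted p = 0.00656, edgeR) were lower. Of 11 tested fibril-binding genes Dcn (decorin) was higher at 1.03 (SE 0.14, adjusted p = 0.000953, edgeR) and Postn (periostin) lower at -1.94 (SE 0.11, adjusted p = 2.85e-06, edgeR). Of 10 receptors 2 were higher, the integrin chain Itga11 at 2.36 (SE 0.57, adjusted p = 0.0208, edgeR) and Lair1, an inhibitory receptor of immune cells, with 0.109, 0.204 and 0.373 FPKM in atria against 0.0172, 0 and 0 FPKM in ventricles. No gene of the 4 lists was called between the HO parts or in the interaction.

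Between HO atrium-like parts and atria, 5 of 19 maturation genes were called higher and 1 lower. P4ha2 at 3.41 (SE 0.32, adjusted p = 0.00203, edgeR) and P4ha1, its paralogue, at 2.60 (SE 0.25, adjusted p = 0.00219, edgeR) were higher, and Colgalt2, a galactosyltransferase of hydroxylysine, was lower at -2.59 (SE 0.52, adjusted p = 0.0142, edgeR). In cleavage and cross-linking 2 of 13 were higher, Adamts2 (the main N-propeptidase) at 2.93 (SE 0.72, adjusted p = 0.0253, edgeR) and Lox at 2.32 (SE 0.52, adjusted p = 0.0195, edgeR), and 1 lower, Tll1, a procollagen C-proteinase, with 0, 0.0657 and 0.00622 FPKM against 0.543, 1.19 and 0.617 FPKM. Of 12 fibril-binding genes 4 were higher, among them Lum (lumican) at 3.78 (SE 0.84, adjusted p = 0.0187, edgeR) and Prelp at 3.76 (SE 0.90, adjusted p = 0.0238, edgeR), and Dpt (dermatopontin) with 0.306, 9.82 and 4.199 FPKM against 0.0165, 0 and 0.05398 FPKM. Of 10 receptors Adgrg1, a receptor of type III collagen, was higher at 2.55 (SE 0.55, adjusted p = 0.0173, edgeR), and Itga1 was lower at -3.02 (SE 0.39, adjusted p = 0.00455, edgeR), as was Gp6, the platelet receptor, listed at 0 in each HO library and at 0.319, 1.03 and 1.203 FPKM in atria.

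Between HO ventricle-like parts and ventricles, 3 of 19 maturation genes were called higher, among them P4ha1 at 2.20 (SE 0.22, adjusted p = 0.00227, edgeR), and 2 lower, Colgalt2 at -3.22 (SE 0.54, adjusted p = 0.00973, edgeR) and P3h2 at -2.52 (SE 0.44, adjusted p = 0.0112, edgeR). Of 13 genes of cleavage and cross-linking 3 were higher, among them Lox at 4.10 (SE 0.75, adjusted p = 0.0121, edgeR) and Adamts2 at 2.89 (SE 0.79, adjusted p = 0.0383, edgeR), and Pxdn, which cross-links type IV collagen, was lower at -1.41 (SE 0.29, adjusted p = 0.0178, edgeR). Of 12 fibril-binding genes 6 were higher and none lower, led by Dpt at 3.88 (SE 0.90, adjusted p = 0.0245, edgeR), Prelp at 3.52 (SE 1.02, adjusted p = 0.0458, edgeR) and Lum at 3.43 (SE 0.57, adjusted p = 0.00914, edgeR). Of 9 receptors 3 were higher, among them Ddr2 at 3.21 (SE 0.91, adjusted p = 0.0429, edgeR) and Adgrg1 at 2.49 (SE 0.58, adjusted p = 0.0245, edgeR), and Lair1 with 1.09, 0.884 and 0.2801 FPKM against 0.0172, 0 and 0 FPKM, while Itga1 was lower. P4ha1, P4ha2, Plod2, Adamts2, Lox, Bgn, Lum, Prelp, Dpt and Adgrg1 were called higher, and Colgalt2 and Itga1 lower, in both comparisons of HOs with E11.5H, which are not independent, as said of the collagens. The share of all genes called in both was not computed, so this recurrence is not read as particular to these lists. Plod2 and Bgn fall outside the rule for named genes and were added after their values were seen. These lists were chosen with earlier results of these data known, and their counts are read against the shares of all genes given above.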

How the data were processed

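RNA of 12 libraries was sequenced by the study after an Illumina TruSeq kit per the labels, while the methods name a company's library service. The authors aligned reads with STAR to mm10 (GRCm38) and deposited, per gene and library, expected counts and FPKM. The counting tool, the annotation and the use of strand are not given in the sources used here. Of the 314280 deposited expected counts 23.8% were not whole, and they were rounded before testing. The deposited FPKM were used for levels, shares and ratios, which carry no test.

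Genes with low counts were removed with filterByExpr (minimum count 10). Counts were scaled by TMM, which centres most genes, and compared with the quasi-likelihood test of edgeR 4.0.16 in R 4.3.3 in a separate fit for each pair of groups, and for the interaction over all 12 libraries. P-values were adjusted by Benjamini-Hochberg over all genes tested, and called means an adjusted p under 0.05 with an absolute log2 fold change over 1. DESeq2 1.42.0, its size factors, no filter, no fold limit, 1 fit of all libraries, no hemoglobin genes, the replicate block and leaving out each library were the alternatives. The scripts were tested on simulated data. Of 200 genes given a log2 fold change of 2, the test recovered 200 between chambers, 2 between HO parts and 3 in the interaction. Recovery was 63 in HO atrium-like parts against atria and 80 in HO ventricle-like parts against ventricles.

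Levels per library were named for the 5 most abundant fibrillar, 3 basement membrane, 3 beaded and 2 FACIT genes and the top gene of each other class, for up to 8 called members per comparison with the largest fold changes and a mean of at least 1 FPKM, and for Col6a2, Col2a1, Col9a1 and Col10a1. In each list of other genes up to 3 called genes per comparison were named. The members and lists were chosen with earlier results of these data known. The study describes its 3 organoid samples as biological replicates, each cut into both parts. For the E11.5H libraries the sources used here do not say whether they came from separate hearts, so p-values measure the spread between these libraries, which may be technical there. A count of 0 allows up to 3 fragments, and such floors cover counting error only.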

Additional observations from a re-analysis of the deposited data

How the results depend on the processing

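In E11.5H atria against ventricles 9 collagens were called, 14 without the fold limit, 0 with all 12 libraries in 1 fit, and 5 to 10 when 1 library was left out. Over all genes the same fits called 712 of 14536, 1982 of 14536, 30 of 16494, and 3.62 to 5.13%. In HO atrium-like parts against atria there were 11, 18 with DESeq2, and 1 to 16 when 1 library was left out. Over all genes these fits called 3821 and 4794 of 15418, and 10.3 to 34.7%. In HO ventricle-like parts against ventricles there were 10, 17 with DESeq2, 6 with the replicate block, and 2 to 19 when 1 library was left out. Over all genes these fits called 2859, 3742 and 2003 of 15094, and 7.0 to 23.9%. Between HO parts and in the interaction, 0 collagens were called under every alternative run. The causes of these shifts were not tested. The replicate block gave 8 calls between chambers, with 621 of 14536 genes called, and 9 in HO atrium-like parts against atria, with 2806 of 15418. Both HO parts came from the same organoid samples, but no source used here ties the replicate numbers to them, and the numbers were not taken to pair the libraries. Deviations of libraries with the same number correlated at 0.0237 to 0.088 between the chambers, and with different numbers at -0.0854 to 0.0418. Between HO parts they correlated at -0.0809, 0.6285 and 0.422 for replicates 1, 2 and 3, and with different numbers at -0.7469 to 0.5217. These values do not settle the pairing of the HO parts, so the main fit may leave out a true pairing. No fold change named in the text reversed. Of 513 fold changes under other settings 462 stayed on the same side of the call, 36 lost it and 15 gained it, and of 474 with 1 library left out 339, 129 and 6 did so. The fits of pathway genes under these settings were added after seeing the data. Depth, at 23971258 fragments or more, left members of a few fragments without a test, and 3 libraries per group with the wide spread of HOs limit the rest.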
